A study of Homo sapiens with 25 samples.

Results

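Genes with ZNF symbols encode proteins that carry zinc fingers, short folds in which, in the common C2H2 type, a pair of cysteines and a pair of histidines hold a zinc ion. The 200 ZNF genes described here are those with the highest mean normalized count over all 25 libraries of the series, among 526 symbols made of ZNF, a number and at most 1 further letter, in a table of 36755 genes. RNA was measured in Jurkat cells, an established human T-cell leukaemia line, grown with 100%, 50%, 25%, 12.5% or 0% histidine and collected on day 3, or with 100%, 50%, 25% or 12.5% histidine and collected on day 6. Each of the 9 groups held 3 libraries, except 100% histidine on day 3 and 12.5% on day 6, which held 2. All groups were unmodified cells of the same line as far as the labels say, no other agent is named, and nothing in the labels says whether libraries of a group came from separate cultures, so each p-value speaks only for the scatter among the libraries, which may be technical.

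Most ZNF proteins are thought to bind DNA in a sequence-specific way. The largest subgroup joins an array of fingers to a KRAB domain, which recruits the corepressor TRIM28 and, through it, the histone methyltransferase SETDB1 to transposon-derived and other sequences. Other ZNF proteins bind promoters as activators, bind RNA, or serve ribosome assembly, splicing or the mitotic spindle. Histidine is an essential amino acid for these cells, and it is also a zinc ligand of each C2H2 finger.

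The members were chosen by their mean level over the 25 libraries, so the levels are a description. The member means ran from 326 to 5176 normalized counts with a median of 668, and 55 members had a mean of at least 1000. The 10 highest were ZNF664 with a mean of 5176, ZNF207 with 4304, ZNF512B with 4011, ZNF146 with 3596, ZNF609 with 3575, ZNF106 with 3083, ZNF22 with 2959, ZNF217 with 2934, ZNF740 with 2409 and ZNF638 with 2326. The limit of 200 fell between genes of nearly equal level: ZNF791 (326.3) and ZNF780B (326.0) were the last inside, and ZNF731P (325.6) and ZNF775 (316.4) the first outside. Counts grow with transcript length, so this order is not an order of molecules. Per 1000 bases of transcript, the mean level was 2259 for ZNF207, 1567 for ZNF428 and 1013 for ZNF664.

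By GENCODE 29 (GRCh38), 198 of the 200 members were protein coding and 2, ZNF252P and ZNF271P, were pseudogenes. Chromosome 19, which holds the large clusters of KRAB zinc finger genes, carried 64 of them, chromosome 7 carried 20 and chromosome 16 carried 15. Of the 200, 84 lay within 100000 bases of another member, and 64 overlapped another protein-coding gene. For overlapping genes, and for near-identical copies within clusters, the deposited counts may share reads, since the sources used here do not say whether counting used strand or how shared reads were assigned.

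Translated coding sequences of the 198 coding members held a median of 9 matches to the C2H2 finger pattern and at most 34, and 4 members (ZNF330, ZNF738, ZNF839 and ZNF862) held none. A KRAB-like stretch was found in 66, which is 33.3% of the coding members against 1.40% of the 17352 coding genes of the table, and 34 of these 66 were on chromosome 19. Histidine made up a median of 5.69% of codons in the members (range 0.730% in ZNF738 to 9.46% in ZNF776), against 2.45% over the 17352 coding genes. Of the members, 133 lay at or above the 95th percentile of all coding genes, 4.87%. The cysteine share was 4.71% against 1.99%. The ranking by level did not use these shares, but the choice of ZNF symbols took genes named for zinc fingers. The C2H2 finger itself holds cysteines and histidines, so high shares of both follow from that choice and are a description. The KRAB-like share also cannot be separated from the choice of symbols. No comparison of these shares with ZNF genes outside the members was made.

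**Figure D1:**
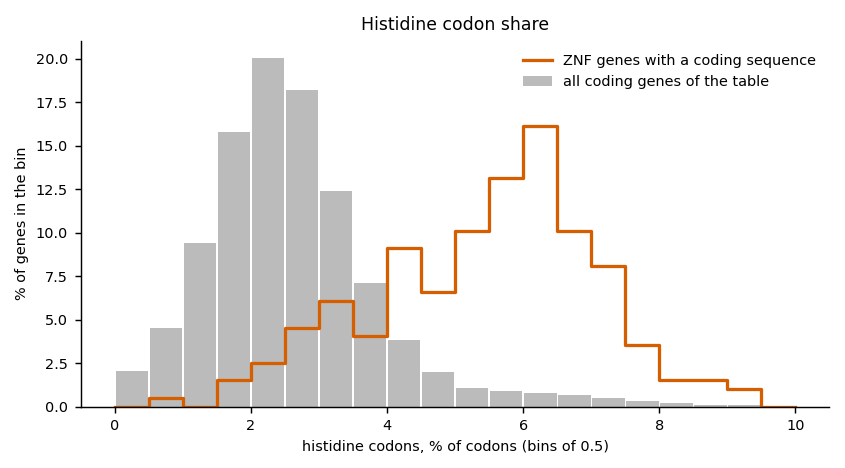
Distribution of the share of histidine codons in the longest coding sequence of each gene. The x axis gives histidine codons as a percentage of all codons in bins of 0.5, the y axis the percentage of genes in each bin; grey bars are all 17352 coding genes of the table and the line is the 198 coding ZNF members, whose median is 5.69% against 2.45%.

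The deposited library totals were 1.84e+07 to 2.14e+07 normalized counts, and the members together made up 0.821% to 1.04% of a library. All 12 markers of the T lineage were present, with a summed level of 60042 to 66131 in the libraries with 100% histidine on day 3 and 91506 to 96363 in those with none. Summed erythroid markers (191 to 5042) and fibroblast and matrix markers (1733 to 12263) varied between libraries of the same group, and heart muscle markers reached 25690 in 1 library, replicate 2 with 25% histidine on day 6, against at most 81.1 in the libraries of the other groups. Some groups also differed as a whole. Erythroid sums were 3530 to 5042 at 50% on day 3, against 281 to 528 at 100% and 226 to 360 at 25%. From 50% to 25% there, 2 of 4 tested erythroid markers were called lower (limma). Fibroblast and matrix sums at 50% on day 6 (1733 to 3078) lay below those at 100% (4629 to 10297) and 25% (4854 to 12263). The summed level of 4 B cell markers also differed between 50% and 25% histidine on day 3, the step at which many members changed, with no test of the sum: it was 218 to 269 at 100% and 226 to 254 at 50% histidine, but 559 to 675 at 25%, 644 to 650 at 12.5% and 601 to 660 at 0%. CD79A made up nearly all of this sum (531 to 655 at 25% on day 3), while MS4A1 stayed at or below 3.01 in every library. The part of these markers in the results was not tested. In bulk RNA, fewer cells expressing a gene and less of its RNA per cell cannot be told apart.

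On the deposited scale, the summed level of the 200 members was lowest at 25% histidine on day 3. It was 182383 ± 1527 normalized counts (SD, n = 2) at 100%, 181350 ± 3521 at 50%, 167791 ± 728 at 25%, 173179 ± 3494 at 12.5% and 186033 ± 1073 at 0% (n = 3 each). On day 6 it was 187450 ± 3925 at 100%, 186483 ± 5651 at 50%, 192688 ± 2151 at 25% (n = 3 each) and 184927 ± 2347 at 12.5% (n = 2). As a share of the library total, the members on day 3 made up 0.882% ± 0.029 at 100% (n = 2), 0.862% ± 0.013 at 50%, 0.857% ± 0.015 at 25%, 0.832% ± 0.016 at 12.5% and 0.877% ± 0.0078 at 0% (SD, n = 3 each). On day 6 the shares were 0.983% ± 0.0050 at 100%, 0.957% ± 0.019 at 50%, 0.998% ± 0.042 at 25% (n = 3 each) and 0.957% ± 0.016 at 12.5% (n = 2). The order of the groups therefore depended on the scale: on day 3 the lowest was 25% on the deposited scale and 12.5% as a share of the total, and 0% lay above 100% on the former and not on the latter. Mean shares on day 6 were all above those on day 3, but the deposited sum at 12.5% on day 6 was below that at 0% on day 3.

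Single members varied modestly. The ratio of the highest to the lowest group mean had a median of 1.55 (range 1.14 to 3.37); it reached 2 in 17 members and stayed under 1.5 in 82. Day 3 held the lowest group mean of 159 members, at 25% histidine in 47 and at 12.5% in 38. The highest group mean was at 25% on day 6 in 40 members and at 0% on day 3 in 33, but at 25% on day 3 in only 4. Day 3 supplied more groups than day 6, and these placings are on the deposited scale. They were not worked out for all genes, so they are a description. At least 1 comparison of a restricted level with 100% histidine called a change in 131 members, and none did in 69, beside 47.2% of all tested genes and 77.9% of genes with a mean at least that of the lowest member called in at least 1; a call is an adjusted p under 0.05 in the limma fit over all 22994 tested genes, on log2(value + 1), and all 200 members were tested.

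**Figure D2:**
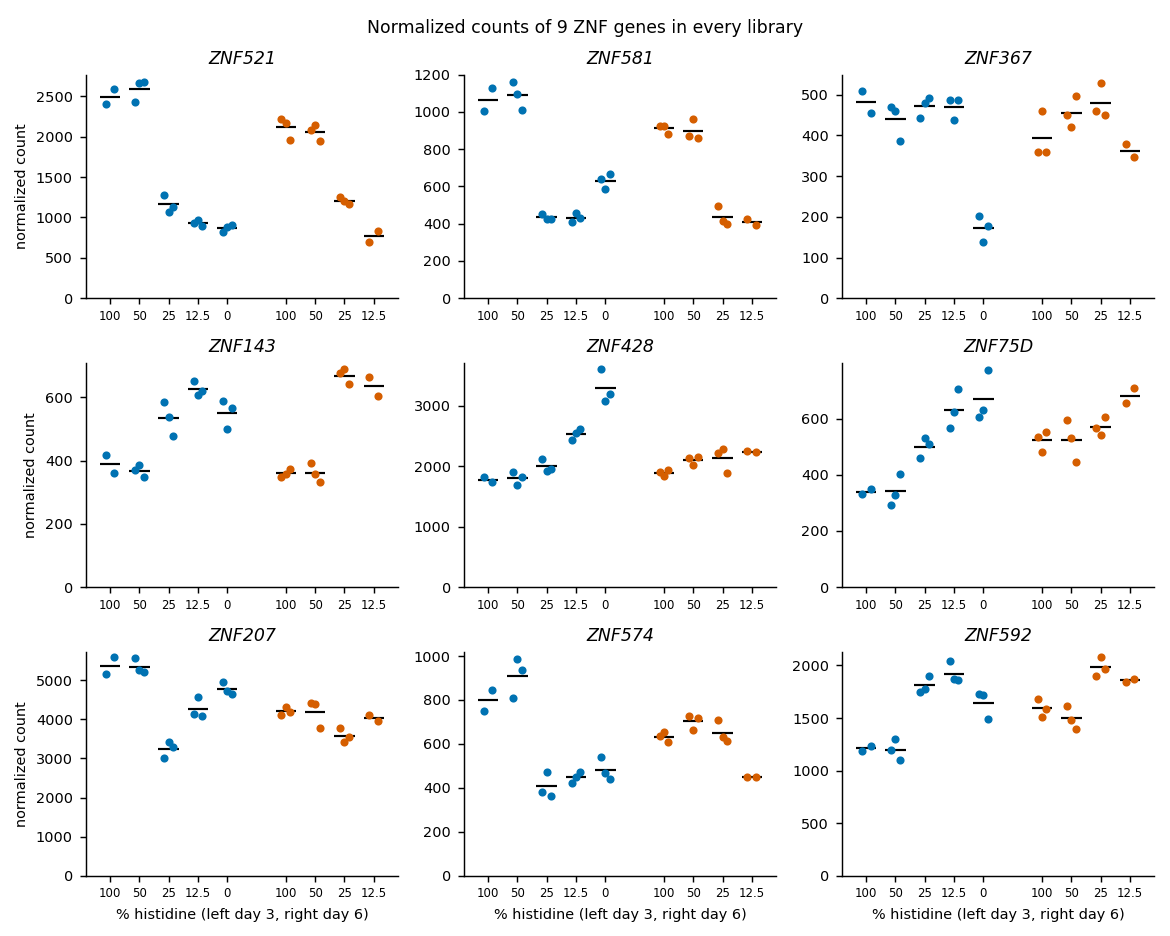
Normalized counts of 9 members in every library, by histidine level (x axis, percent; day 3 in blue on the left and day 6 in orange on the right of each panel); points are libraries, bars are group means and each y axis starts at 0. ZNF521 and ZNF581 are low at 25% histidine and below on both days, ZNF367 is low in the day 3 libraries without histidine, and ZNF143 is high from 25% downwards.

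At 50% histidine no member was called on either day. The test called 0% of all genes higher and 0% lower on day 3, and 0% higher and 0.00435% lower on day 6, with 0.0113% lower among genes of like level (limma, Benjamini-Hochberg adjustment). That name stands here for the 8845 genes with a mean at least that of the lowest member, with no upper limit. Unadjusted p-values under 0.05 were found for 7 members on day 3 and 11 on day 6, against 4.68% and 4.78% of all tested genes. The member differences lay between -0.44 and 0.40 log2 units on day 3 and between -0.41 and 0.41 on day 6, with a median standard error of 0.12 and 0.11.

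On day 3 at 25% histidine 49 members fell and 15 rose against 100%, where 9.72% of all tested genes were called lower and 9.81% higher. Among the 8845 genes with a mean at least that of the lowest member, 19.2% were lower and 19.4% higher, beside 24.5% lower and 7.50% higher among the members; the difference in shares was not tested. The median member difference was -0.13 log2 units against -0.00 over all tested genes. With every library rescaled to the same total, the split was 36 lower and 23 higher, and without replicate 1 of the controls 41 members were called in place of 64.

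At 12.5% on day 3, 47 members fell and 23 rose, beside 12% of all genes lower and 14.2% higher. Of the genes of like level 19.1% were lower and 29.5% higher. The median member difference was -0.08 against -0.04. Under quantile normalization the split was 54 lower and 16 higher.

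Without histidine on day 3, 41 members fell and 40 rose, beside 16.1% of all genes lower and 14.8% higher, and 24.9% and 28.3% of genes of like level. The median member difference was 0.05 against -0.02 over all genes. Among the members the shares were 20.5% lower and 20.0% higher.

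On day 6 at 25% histidine 26 members rose and 16 fell, beside 11% of all genes higher and 9.24% lower (20.2% in either direction), and 24.2% and 15.5% of genes of like level. At 12.5% on day 6, 23 rose and 33 fell, beside 10.8% of all genes higher and 11.1% lower, and 23.4% and 18.4% of genes of like level. The median member differences were 0.02 and -0.05. Without replicate 1 of the group at 12.5%, 32 members were called in place of 56, and without replicate 2, 36.

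**Figure D3:**
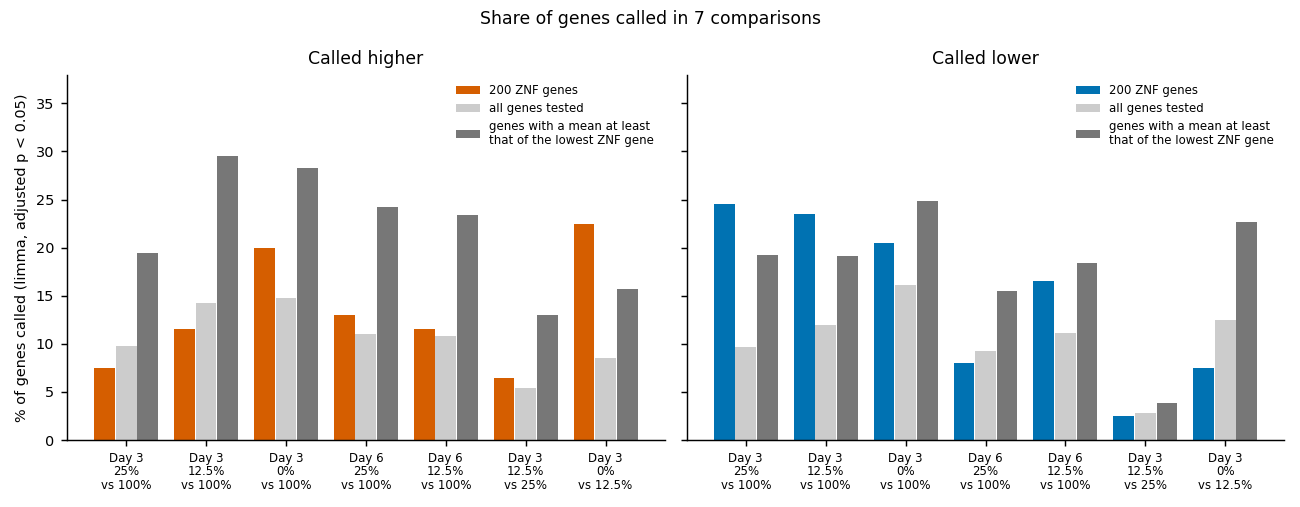
Percentage of genes called higher (left) and lower (right) by limma at an adjusted p under 0.05 in 7 comparisons; coloured bars are the 200 ZNF members, light grey all 22994 tested genes and dark grey the 8845 genes with a mean at least that of the lowest member. On day 3 at 25% histidine 24.5% of members were lower and 7.50% higher, and from 12.5% to 0% histidine 22.5% were higher and 7.50% lower.

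**Figure D4:**
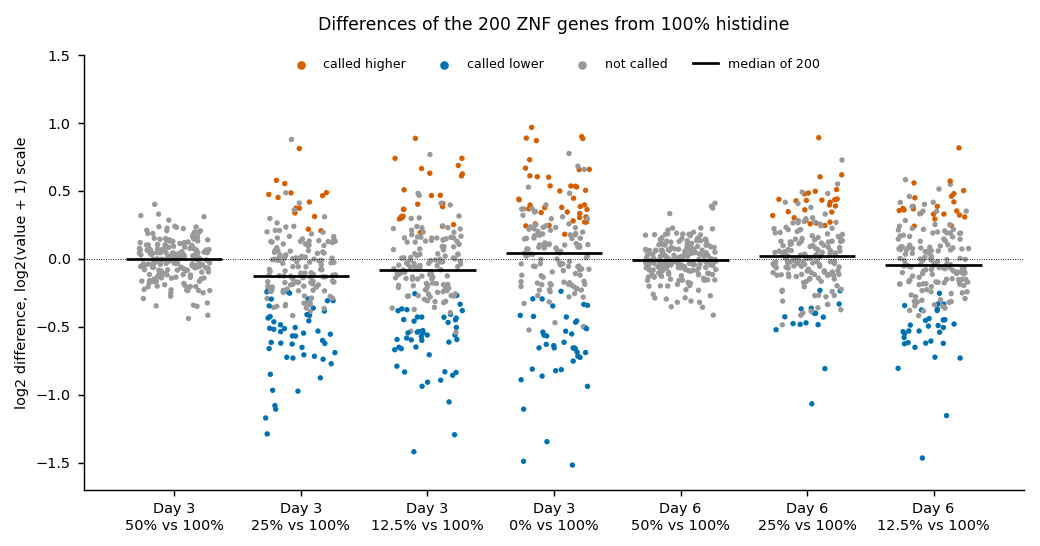
Log2 differences of the 200 members from 100% histidine of the same day (y axis, log2(value + 1) scale) at each restricted level (x axis); each point is a gene, coloured where called, and black lines are medians of the 200. Points at 50% histidine lie within 0.44 log2 units of 0, and the medians at 25% and 12.5% on day 3 lie below 0.

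The steps between neighbouring levels place these changes. From 50% to 25% on day 3, 53 members fell and 18 rose, beside 12.5% of all genes lower and 11.4% higher, and 24.5% and 20.2% of genes of like level; with equal totals, which moved the median of all genes from 0.01 to 0.11, the split was 39 lower and 33 higher. From 25% to 12.5%, 13 members rose and 5 fell, beside 5.41% of all genes higher and 2.81% lower (8.22% in either direction) and 13% and 3.86% of genes of like level, and the split was 6 higher and 7 lower with equal totals and 8 and 5 under quantile normalization. From 12.5% to 0%, 45 rose and 15 fell, beside 8.5% of all genes higher and 12.5% lower, and 15.7% and 22.7% of genes of like level. Under quantile normalization this last split was 68 higher and 9 lower. On day 6, 28 members (14%) rose and 20 (10%) fell from 50% to 25%, beside 10.6% of all genes higher and 10.3% lower. Of genes of like level, 22.4% were higher and 17.2% lower there. From 25% to 12.5% on day 6 none rose and 3 (ZNF521, ZNF184 and ZNF574) fell, beside 0.204% of all genes higher and 0.67% lower. Among genes of like level 0.464% were higher and 1.45% lower in that step. There 36 members (18%) had an unadjusted p under 0.05, beside 10.6% of all tested genes.

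ZNF521 had the largest range of group means among the members. It encodes a cofactor with many fingers known from immature blood and neural cells, and lies at chr18:25061926-25352190 on the minus strand. Its counts with 100% histidine on day 3 were 2400 and 2588, with 25% 1282, 1067 and 1132, with 12.5% 928, 969 and 896, and with none 822, 888 and 900. On day 6 they were 2216, 2175 and 1964 with 100%, 1250, 1209 and 1164 with 25%, and 699 and 836 with 12.5%. No library at 25% or below overlapped those at 50% or 100% of the same day. The differences from 100% were -1.11 ± 0.09, -1.42 ± 0.09 and -1.52 ± 0.09 log2 units (SE) on day 3 at 25%, 12.5% and 0%, and -0.81 ± 0.08 and -1.47 ± 0.09 on day 6 at 25% and 12.5%. Adjusted p-values were at most 2.15e-08 in these 5 tests (limma, Benjamini-Hochberg). Its fall from 25% to 12.5% was -0.66 ± 0.09 on day 6 (limma, adjusted p = 0.000104), but the adjusted p was 0.115 in a fit of those 2 groups alone.

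By Pearson correlation over the 9 group means, the 5 members most like ZNF521 were ZNF282 (r = 0.96), ZNF689 (0.95), ZNF277 (0.92), ZNF385A (0.92) and ZNF354A (0.92). The points are group means that share controls and scaling, so these values are a description. ZNF385A fell by 0.94 ± 0.14 at 0% on day 3 and by 0.65 ± 0.14 at 12.5% on day 6.

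ZNF581 had the largest fall of the 200 members in the comparison of 25% with 100% histidine on day 3. Its counts were 1003 and 1127 at 100%, 450, 427 and 427 at 25%, 411, 455 and 432 at 12.5%, and 641, 588 and 665 at 0%. On day 6 they were 925, 927 and 882 at 100%, 495, 417 and 396 at 25%, and 424 and 394 at 12.5%. The libraries without histidine lay between the controls and the libraries at 25% and 12.5%, with no overlap. The differences were -1.29 ± 0.10, -1.30 ± 0.10 and -0.75 ± 0.10 on day 3, and -1.07 ± 0.09 and -1.15 ± 0.10 on day 6, and the rise from 12.5% to 0% was 0.54 ± 0.09 (limma, adjusted p = 6.68e-05). The gene, at chr19:55635459-55645622 on the plus strand, overlaps ZNF580 and CCDC106 on the same strand, so reads may be shared. ZNF580, also a member, had differences of -0.36 ± 0.13 (adjusted p = 0.061, not called) at 25% on day 3 and -0.61 ± 0.13 (adjusted p = 0.00125) at 12.5% on day 6 by limma.

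ZNF473, ZNF286A and ZNF574 were low at 25% and 12.5% histidine on day 3. ZNF473 encodes ZFP100, a protein of histone mRNA 3′ end processing; its counts were 873 and 716 at 100%, 365, 335 and 352 at 25%, and 489, 416 and 654 at 0%, and its difference at 25% was -1.17 ± 0.16 (limma, adjusted p = 5.95e-06). ZNF286A counts were 1254 and 1230 at 100% and 542, 553 and 675 at 25%, a difference of -1.08 ± 0.19 (limma, adjusted p = 0.000278). ZNF574 counts were 749 and 847 at 100%, 384, 475 and 365 at 25%, and 541, 469 and 439 at 0%. In none of the 3 genes did a library at 25% reach the lowest control of that day. ZNF473 overlaps VRK3, ZNF574 GRIK5 (both on the opposite strand) and ZNF286A AC005324.4 on the same strand, so the source of the counts is uncertain.

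A different set led the falls without histidine on day 3. ZNF367, whose transcript is known to vary over the cell cycle, had 509 and 454 counts at 100%, 442, 479 and 492 at 25%, 487, 438 and 485 at 12.5%, and 203, 137 and 177 at 0%. All libraries without histidine were below every other library, which ranged from 346 to 529 over both days. The difference at 0% was -1.49 ± 0.15 (limma, adjusted p = 8.5e-09), and -0.03 ± 0.15 at 25% and at 12.5%. The stretch upstream of its RefSeq start is shown because this gene separates 0% from 12.5% histidine most among the members: chr9:96418371-96418620 (GRCh38.p14, minus strand, 5′ to 3′), with CCAAT boxes (CCAAT), GC boxes (GGGCGG) and an E2F-like motif (TTTCCCGC), each in either orientation, in capitals.
ZNF367: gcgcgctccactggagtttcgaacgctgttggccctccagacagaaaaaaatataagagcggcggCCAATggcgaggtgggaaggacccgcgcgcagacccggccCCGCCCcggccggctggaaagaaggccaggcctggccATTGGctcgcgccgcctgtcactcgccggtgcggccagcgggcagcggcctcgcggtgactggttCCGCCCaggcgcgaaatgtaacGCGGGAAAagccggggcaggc

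ZNF367 held 5 matches in these 250 bases. In the 250 bases upstream of the RefSeq start, the CCAAT box was found in 41.4% of the 174 members with an entry and in 32.0% of 35116 gene starts, the GC box in 63.2% and 42.6%, and this E2F-like motif in 2.30% and 1.39%. An ETS-like motif (CCGGAAGT) was found in 13.2% of member promoters and 3.42% of all, and an E box (CACGTG) in 4.60% and 6.34%. The 35116 gene starts were not matched to the members in level or gene type, and the differences in shares were not tested. The motifs were chosen with the values known, and a match describes letters, not a bound site.

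ZNF100, ZNF43 and ZNF101, KRAB genes of chromosome 19, also fell without histidine. ZNF100 counts were 582 and 620 at 100%, 383, 434 and 329 at 25%, 324, 368 and 349 at 12.5%, and 246, 233 and 228 at 0%, so that the libraries without histidine lay below all the others. Its difference at 0% was -1.35 ± 0.13, that of ZNF101 was -1.11 ± 0.23 and that of ZNF43 was -0.89 ± 0.16. ZNF100 and ZNF43 are neighbours, and reads of such related genes may be split between copies. ZNF184, a KRAB gene of chromosome 6, had 567 and 578 counts at 100% and 273, 331 and 344 at 0%, a difference of -0.86 ± 0.14 (limma, adjusted p = 1.99e-05). ZNF395, a factor known to respond to hypoxia, had 1789 and 1917 counts at 100% and 1037, 1073 and 1028 at 0%. Its difference was -0.82 ± 0.08 at 0% on day 3 and -0.62 ± 0.08 at 12.5% on day 6.

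The largest rises without histidine on day 3 were smaller than the largest falls. ZNF75D, a KRAB gene of the X chromosome that overlaps ETDA and ETDC on the opposite strand, had 331 and 350 counts at 100%, 459, 532 and 511 at 25%, 568, 624 and 706 at 12.5%, and 606, 632 and 774 at 0%. Its differences of 0.55 ± 0.14, 0.89 ± 0.14 and 0.97 ± 0.14 were all called, that at 25% not without replicate 1 of the controls (limma, adjusted p = 0.056). On day 6 its control counts were already 535, 482 and 554, and at 12.5% 655 and 711. The members most like it over the 9 group means were ZNF862 (r = 0.94), ZNF213 (0.93), ZNF319 (0.93), ZNF252P (0.90) and ZNF664 (0.89).

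ZNF428 rose with each step of histidine below 25% on day 3. Its counts were 1819 and 1740 at 100%, 2119, 1917 and 1952 at 25%, 2428, 2551 and 2618 at 12.5%, and 3608, 3088 and 3191 at 0%. The libraries at 12.5% and 0% overlapped neither each other nor the controls. The difference was 0.51 ± 0.08 at 12.5% and 0.89 ± 0.08 at 0% (limma, adjusted p = 1.86e-09), against 0.24 ± 0.08 at 12.5% on day 6. ZNF428 overlaps SRRM5 on the opposite strand.

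ZNF276 and ZNF783 were high in the libraries without histidine and not called in the other day 3 comparisons with 100%. ZNF276 counts were 940 and 1101 at 100%, 892, 797 and 814 at 25%, 1004, 967 and 1002 at 12.5%, and 2053, 1964 and 1701 at 0%. The difference was 0.90 ± 0.11 against 100% and 0.94 ± 0.10 against 12.5% (limma, adjusted p = 7.06e-08). ZNF276, at chr16:89720400-89740903 on the plus strand, overlaps FANCA and VPS9D1 on the minus strand, so its counts may hold reads of those genes. ZNF783 counts were 378 and 390 at 100% and 711, 602 and 605 at 0%, a difference of 0.73 ± 0.15. ZNF121 also rose between 12.5% and 0%, from 1218, 1244 and 1294 to 2369, 2247 and 2258, a difference of 0.87 ± 0.10. ZNF862, which holds no C2H2 match, rose by 0.66 ± 0.09 at 0%.

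Promoter-binding activators formed a list of 8 members, chosen with earlier results known. Of these, 2 rose and 1 fell on day 3 at 25%, 3 rose and 0 fell at 12.5% and at 0%, 5 rose and 0 fell on day 6 at 25%, and 4 rose and 0 fell on day 6 at 12.5%. Of genes of like level, 19.4%, 29.5%, 28.3%, 24.2% and 23.4% rose in these comparisons, in the same order. The like-level shares called lower were 19.2%, 19.1%, 24.9%, 15.5% and 18.4%. This list was not tested as a set. Within the list, the only fall was on day 3 at 25%. The fall was that of ZNF281 (-0.24), whose call was lost with equal totals (limma, adjusted p = 0.191), with a pseudocount of 10 and without any 1 of the 5 libraries compared. The list medians on day 6 were 0.26 and 0.29, beside -0.02 and -0.00 over all tested genes. ZNF76, ZNF148 and ZNF711 were called in none of these comparisons.

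ZNF143, an activator of small nuclear RNA and many protein-coding promoters, led the rises on day 6. Its counts there were 348, 357 and 374 at 100%, 393, 358 and 333 at 50%, 676, 689 and 641 at 25%, and 666 and 605 at 12.5%. On day 3 they were 419 and 360 at 100%, 586, 537 and 477 at 25%, 652, 606 and 620 at 12.5%, and 587, 499 and 567 at 0%. Every library at 25% or below was above every library at 50% or 100%. The differences were 0.89 ± 0.10 and 0.82 ± 0.11 on day 6 and 0.45 ± 0.11, 0.69 ± 0.11 and 0.50 ± 0.11 on day 3. The value at 25% on day 3 was not called without replicate 3 of the controls (limma, adjusted p = 0.119).

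The upstream sequence of ZNF143 is shown because it was the only 1 of 174 member promoters that held the core of an amino acid response element (TGATGNAAT, either orientation), the motif known for binding of ATF4 with C/EBP factors; 0.888% of all 35116 promoters held it. The stretch is chr11:9460856-9460964 (GRCh38.p14, plus strand, 5′ to 3′), the longest part of the 250 bases before the RefSeq start that holds no exon annotated in GENCODE 29; RefSeq also lists an antisense gene there. Capitals mark a GC box, a pair of CCAAT boxes and that core.
ZNF143: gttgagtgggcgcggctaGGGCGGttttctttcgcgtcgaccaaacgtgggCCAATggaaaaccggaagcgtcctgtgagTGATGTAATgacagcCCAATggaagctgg

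ZNF410, known as an activator of the chromatin remodeller gene CHD4, had 1180 and 1202 counts at 100% on day 3 and 1652, 1634 and 1678 at 25%, 1898, 1793 and 1842 at 12.5%, and 1707, 1521 and 1432 at 0%. All day 3 libraries at 25% or below were above both controls. Its differences were 0.47 ± 0.12, 0.63 ± 0.12 and 0.38 ± 0.12 on day 3, and 0.43 ± 0.11 and 0.50 ± 0.12 on day 6; that at 0% was not called without control replicate 1 or 3 (limma, adjusted p = 0.0865 and 0.0662) or without replicate 1 at 0% (0.0741). ZNF410 overlaps PTGR2 and FAM161B. CHD4 itself differed by -0.36 at 25% on day 3 and by 0.25 at 25% on day 6, both called.

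ZNF335, a subunit of a histone H3 lysine 4 methyltransferase complex, rose at 12.5% and 0% on day 3 and at 25% and 12.5% on day 6. Its counts were 1115 and 1122 at 100% on day 3, 1366, 1314 and 1440 at 12.5%, and 1920, 1746 and 1678 at 0%, and on day 6 1186, 988 and 1121 at 100% and 1589 and 1470 at 12.5%. The difference was 0.67 ± 0.09 at 0% on day 3 (limma, adjusted p = 9.88e-07) and 0.48 ± 0.09 at 12.5% on day 6 (adjusted p = 0.000177). The call at 12.5% on day 3, 0.29 ± 0.09, was lost under quantile normalization (limma, adjusted p = 0.129) and without control replicate 1 (0.0767), control replicate 3 (0.0676) or replicate 3 at 12.5% (0.0558). At 25% on day 6 its rise of 0.25 ± 0.08 was lost with equal totals (limma, adjusted p = 0.0549), under quantile normalization (0.143), and without control replicate 2 (0.179) or replicate 2 or 3 at 25% (0.0962 and 0.0653).

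Partners of corepressor and chromatin complexes were 6 members, of which 1 rose and 0 fell in each day 3 comparison at 25%, 12.5% and 0%, 3 rose and 0 fell on day 6 at 25%, and none passed on day 6 at 12.5%, where the median was 0.03. In the same order of comparisons, 19.4%, 29.5%, 28.3%, 24.2% and 23.4% of genes of like level rose. Those that fell were 19.2%, 19.1%, 24.9%, 15.5% and 18.4%, and this list was not tested as a set. ZNF592, a partner of the chromatin reader ZMYND8, had 1191 and 1231 counts at 100% on day 3, 1751, 1777 and 1901 at 25%, 2038, 1869 and 1859 at 12.5%, and 1727, 1718 and 1493 at 0%. Its differences were 0.58 ± 0.08, 0.66 ± 0.08 and 0.44 ± 0.08, with no overlap with the controls. On day 6 the control counts were 1679, 1506 and 1588, and the difference at 25% was 0.32 ± 0.08. ZNF217, a partner of CtBP and CoREST, had 3079, 3031 and 2705 counts at 100% and 3820, 3449 and 3948 at 25% on day 6, a rise of 0.35 ± 0.07. ZNF644, a partner of the histone methyltransferases EHMT1 and EHMT2, rose by 0.34 ± 0.08 there. The day 6 values at 25% include the library with heart muscle markers; leaving out any 1 library of that comparison gave 36 to 42 called members, and 42 with all.

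ZNF609, a nuclear partner of the Integrator complex and the fifth highest member, had 3155 and 2881 counts at 100% on day 3, 4125, 4220 and 4346 at 25%, 3471, 3610 and 3599 at 12.5%, and 3310, 3444 and 3421 at 0%. On day 6 it had 3189, 3275 and 3345 at 100%, 4312, 4878 and 4492 at 25%, and 4115 and 4277 at 12.5%. The groups at 25% were the highest of each day. The differences at 25% were 0.49 ± 0.07 on day 3 and 0.48 ± 0.06 on day 6 (limma, adjusted p = 9.44e-06 and 2.54e-06).

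KRAB genes known for silencing transposons, for imprints or for zinc finger gene clusters were 6 members, of which 1 rose on day 3 at 25%, 3 at 12.5% and 3 at 0%, and 1 and 2 on day 6 at 25% and 12.5%. None fell. In the same order, 19.4%, 29.5%, 28.3%, 24.2% and 23.4% of genes of like level rose. The shares that fell were 19.2%, 19.1%, 24.9%, 15.5% and 18.4%. The list was not tested as a set. The medians at 12.5% and 0% on day 3 were 0.55 and 0.42. ZNF91, a repressor of SVA elements, had 370 and 307 counts at 100% on day 3, 572, 618 and 399 at 12.5%, and 517, 561 and 843 at 0%, a difference of 0.89 ± 0.20 at 0%. ZNF274, which recruits SETDB1 to the ends of zinc finger genes, had 338, 294 and 285 counts at 100% on day 6, 464, 389 and 442 at 25%, and 419 and 491 at 12.5%. Its differences there were 0.50 ± 0.13 and 0.57 ± 0.15, and the second was not called without replicate 2 at 12.5% (limma, adjusted p = 0.123). ZNF202 rose at 0% on day 3 by 0.54 ± 0.12. ZNF445, an imprint regulator, was called in no comparison with 100%, with differences between -0.20 and 0.11.

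Over all 66 members with a KRAB-like stretch, 2 rose and 16 fell at 25% on day 3, against 13 and 33 of the 132 coding members without it, with medians of -0.13 and -0.12; these differences were not tested. At 0% the counts were 9 and 13 against 31 and 28. Of all tested genes, 9.81% rose and 9.72% fell at 25% on day 3, and 14.8% and 16.1% at 0%. Among genes of like level, 19.4% rose and 19.2% fell at 25% on day 3, and 28.3% and 24.9% at 0%. By chromosome, the 64 members of chromosome 19 had a median of -0.13 at 25% on day 3 and the other 136 a median of -0.12. Split at 10 fingers, after the values were seen, the 96 members with more fingers had 4 rises and 29 falls at 25% on day 3 and a median of -0.17, and the 102 with fewer had 11 and 20 and a median of -0.08.

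The histidine share of the encoded protein was set beside the differences. Across the 198 coding members, Spearman's rho between histidine codon share and the log2 difference was -0.07 at 25% on day 3, -0.09 at 12.5% and 0.02 at 0%, and 0.01 and -0.01 on day 6 at 25% and 12.5%. Over the 16 comparisons the value farthest from 0 was 0.19, for day 6 against day 3 at 100%, and from 12.5% to 0% on day 3 it was 0.15. Over all 14995 coding genes tested it was -0.11 at 25% and at 12.5% on day 3 and -0.04 at 0%. On day 6 the value over these genes was -0.09 at 25% and -0.10 at 12.5%. It was 0.08 from 12.5% to 0% on day 3, and 0.07 for day 6 against day 3. These are correlations across genes of the same libraries, and genes are not replicates.

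Members of mitosis, replication and repair were 4. ZNF207 (BuGZ), which loads the checkpoint protein BUB3 onto kinetochores, is the second highest member. Its counts on day 3 were 5155 and 5586 at 100%, 3008, 3422 and 3284 at 25%, 4131, 4571 and 4083 at 12.5%, and 4958, 4720 and 4656 at 0%. The libraries at 25% were below all other libraries of day 3. The difference was -0.73 ± 0.07 at 25% and -0.33 ± 0.07 at 12.5%, and the rise from 25% to 12.5% was 0.40 ± 0.06 (limma, adjusted p = 0.000241). At 0% the difference of -0.17 ± 0.07 did not pass (limma, adjusted p = 0.0821). On day 6 the counts were 4120, 4312 and 4192 at 100% and 3775, 3425 and 3538 at 25%, a fall of 0.23 ± 0.06. ZNF830, a protein of pre-mRNA splicing and genome stability, rose by 0.36 ± 0.09 at 12.5% on day 3 and by 0.42 ± 0.08 and 0.32 ± 0.09 on day 6; it overlaps CCT6B on the opposite strand. ZNF451, a SUMO ligase, did not pass in any comparison with 100%.

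ZNF263, like ZNF207, was lowest at 25% on day 3; it overlaps TIGD7 on the opposite strand. Its counts were 1732 and 1770 at 100%, 1313, 1318 and 1458 at 25%, 2095, 2138 and 2026 at 12.5%, and 2102, 1966 and 2152 at 0%. The 3 libraries at 25% were below the controls, and those at 12.5% and 0% were above them. The step from 25% to 12.5% was 0.61 ± 0.07 (limma, adjusted p = 1.32e-06).

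The 3 members of ribosome assembly and translation were ZNF593, ZNF598 and ZNF622. ZNF593, a factor of large ribosomal subunit assembly, had 231 and 299 counts at 100% on day 3, 446, 433 and 511 at 25%, 495, 382 and 448 at 12.5%, and 455, 398 and 350 at 0%. All restricted libraries below 50% were above the controls, and the differences were 0.81 ± 0.15, 0.74 ± 0.15 and 0.60 ± 0.15, the last not called without replicate 1 of the controls (limma, adjusted p = 0.104). On day 6 the counts at 100% were 280, 278 and 280 and at 12.5% 253 and 239. ZNF598, the ubiquitin ligase of collided ribosomes, was called at no histidine level, with differences from 100% between -0.11 and 0.17. ZNF622, also of large subunit maturation, fell by 0.30 ± 0.09 at 25% on day 3, a call lost with equal totals (limma, adjusted p = 0.0729), without control replicate 3 (0.289) and without replicate 1 at 25% (0.059).

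Of the 5 members of RNA processing and RNA binding, 1 rose and 0 fell at 25% on day 3, 2 rose and 1 fell at 0%, and 2 rose and 0 fell at 25% on day 6. The shares of genes of like level in these comparisons were 19.4%, 28.3% and 24.2% higher. Those called lower were 19.2%, 24.9% and 15.5%. ZNF326, a subunit of the DBIRD complex that couples splicing to elongation, had 906 and 712 counts at 100% on day 3 and 1320, 1493 and 1611 at 0%, a difference of 0.87 ± 0.11 (limma, adjusted p = 4.12e-07). Its rise of 0.27 ± 0.10 at 25% on day 6 was lost with equal totals (limma, adjusted p = 0.0888), under quantile normalization (0.101), with the replicate block (0.0622) and without any 1 library of that comparison but replicate 2 at 25%. Its rise of 0.37 ± 0.11 at 25% on day 3 was lost without control replicate 3 (limma, adjusted p = 0.388) or replicate 1 at 25% (0.0841). ZNF638, a nuclear RNA-binding protein, had 2201, 2288 and 1942 counts at 100% on day 6, 2995, 2874 and 2780 at 25%, and 2731 and 3122 at 12.5%, differences of 0.43 ± 0.08 and 0.45 ± 0.09. ZNF346, which binds double-stranded RNA, fell by 0.50 ± 0.12 at 0% on day 3. ZNF106 and ZNF318 were called in no comparison with 100%, and ZNF106 counts stayed between 2674 and 3592 in all 25 libraries.

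Day 6 differed from day 3 in the controls for 10 members that rose and 6 that fell, beside 2.93% of all genes higher and 5.73% lower, and 4.66% and 13.9% of genes of like level. With equal totals, which moved the median of all genes from 0.02 to 0.14, 30 rose and 3 fell, and under quantile normalization 21 and 3. ZNF75D rose by 0.62 ± 0.14 and ZNF592 by 0.39 ± 0.08, and ZNF668 fell by 0.61 ± 0.11, a call lost without replicate 3 of the day 3 controls (limma, adjusted p = 0.11). Without that library 5 members were called.

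The effect of 25% histidine differed between days in 18 members, 17 of them with the value on day 6 above that on day 3, beside 2.71% of all genes with a higher and 2.01% with a lower value, and 6.6% and 3.78% of genes of like level. The median difference between days was 0.18 log2 units over the members and -0.00 over all tested genes; with equal totals, which moved that median to -0.10, the split was 10 and 4. ZNF805 had 461 and 329 counts at 100% and 235, 259 and 217 at 25% on day 3, but 368, 282 and 313 at 100% and 424, 477 and 582 at 25% on day 6. Libraries at 25% were below the controls on day 3 and above them on day 6, and the effect differed by 1.34 ± 0.25 (limma, adjusted p = 0.00144). ZNF574 fell at 25% on day 3 but had 638, 654 and 609 counts at 100% and 711, 630 and 614 at 25% on day 6, a difference between days of 1.01 ± 0.16 (adjusted p = 0.000185 by limma). ZNF281, a factor of embryonic stem cell promoters, had 947 and 1031 counts at 100% and 831, 866 and 809 at 25% on day 3, and 931, 966 and 895 against 1315, 1321 and 1271 on day 6. Its effect differed by 0.73 ± 0.12 (limma, adjusted p = 0.000216).

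**Figure D5:**
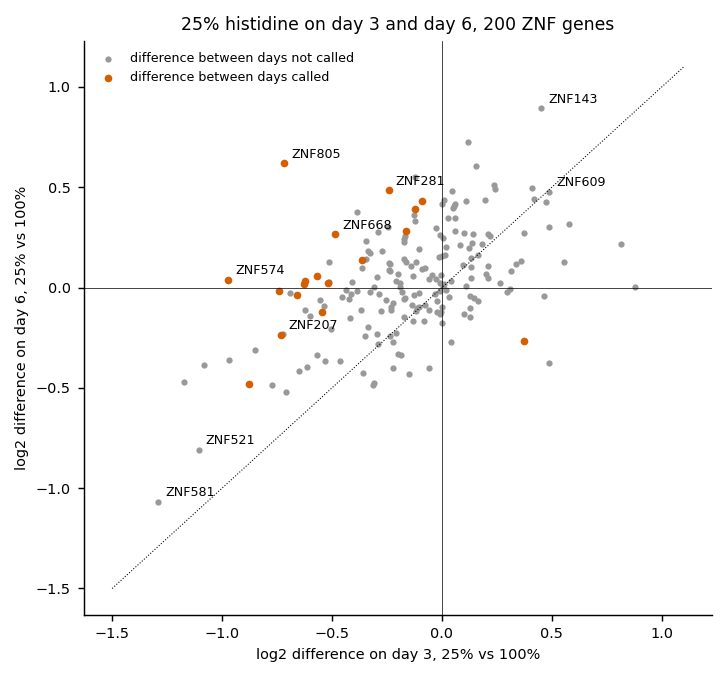
Log2 difference between 25% and 100% histidine on day 3 (x axis) and on day 6 (y axis) for the 200 members, with the dotted line of equal values; orange points are the 18 members whose effect differed between days at an adjusted p under 0.05. Of these, 17 lie above the dotted line, with ZNF805 farthest from it at 1.34 log2 units.

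At 12.5% histidine the effect differed between days in 6 members, 2 with a higher and 4 with a lower value on day 6, beside 1.28% and 2.36% of all genes and 2.58% and 5.16% of genes of like level, and at 50% in none, where the test called 0.00435% of all genes higher and 0% lower and 9 members (4.5%) had an unadjusted p under 0.05, beside 3.94% of all tested genes (limma). ZNF8 had an effect 0.92 ± 0.19 higher on day 6 and ZNF593 an effect 0.92 ± 0.21 lower. Without replicate 1 of the day 3 controls 1 of these calls was made, without replicate 1 at 12.5% on day 6 also 1, and without replicate 2 there 3.

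Other zinc finger families and the remaining ZNF genes give the context at 25% on day 3. Of 282 tested ZNF genes outside the 200, 8 rose and 25 fell (median -0.17), of 41 ZBTB genes 3 and 7 (-0.10), of 20 ZSCAN and ZKSCAN genes 0 and 4 (-0.20), of 20 ZFP genes 0 and 7 (-0.29), and of 23 KLF and SP genes 2 and 6 (-0.07). At 0% the same families had medians of -0.01, 0.07, -0.03, -0.13 and -0.30, with 4 rises and 10 falls among KLF and SP genes. Of all tested genes, 9.81% rose and 9.72% fell at 25%, and 14.8% and 16.1% at 0%. Medians below 0 at 25% were thus shared by these families, and no test of a difference between families was made.

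The corepressor machinery of KRAB proteins, a list of 38 genes, had 5 rises and 11 falls at 25% on day 3, 7 and 8 at 12.5%, 6 and 15 at 0%, 10 and 4 on day 6 at 25%, and 8 and 6 at 12.5%. Over all tested genes, in the same order, 9.81%, 14.2%, 14.8%, 11% and 10.8% rose. The shares that fell were 9.72%, 12%, 16.1%, 9.24% and 11.1%, and the list was not tested as a set. Among genes of like level to the members, 19.4%, 29.5%, 28.3%, 24.2% and 23.4% rose. Of those genes 19.2%, 19.1%, 24.9%, 15.5% and 18.4% fell. The list was not matched to that stratum by level. TRIM28, the central corepressor, had 11954 and 15357 counts at 100% and 12065, 12416 and 12836 at 0% on day 3 and did not pass in any of these comparisons, nor did SETDB1. The falls at 0% included the DNA methyltransferases DNMT3B (-1.85) and DNMT1 (-0.75), the histone methyltransferases SUV39H1 (-1.02) and SUV39H2 (-0.92), and ATF7IP (-0.87), the partner of SETDB1. ATF7IP had 1139 and 1013 counts at 100% and 556, 657 and 650 at 25%, and SUMO2 fell by 0.91 at 25% on day 3 and by 0.65 on day 6.

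Genes of zinc handling, 22 tested of a list of 24, had 3 rises and 6 falls at 25% on day 3, 5 and 4 at 12.5%, 9 and 4 at 0%, 3 and 4 on day 6 at 25%, and 3 and 3 at 12.5%. The shares of all tested genes and of genes of like level are those given above for the corepressor list. This list too was not tested as a set. SLC30A1, the zinc exporter of the plasma membrane, had 569 and 505 counts at 100% and 267, 283 and 261 at 25% on day 3, a difference of -0.99. SLC39A10, a zinc importer, had 503 and 583 counts at 100% and 289, 263 and 250 at 0%, a difference of -1.02. MTF1, the zinc-sensing factor that activates metallothionein genes, had 709, 705 and 649 counts at 100% and 1027 and 1076 at 12.5% on day 6, a difference of 0.61. The metallothionein MT2A fell by 0.99 at 0% on day 3. These genes are examples. Both of those named at 0%, SLC39A10 and MT2A, were falls, whereas 9 genes of the list rose and 4 fell there, with a list median of 0.18.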

How the data were processed

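Per the labels' protocols, strand-specific Illumina libraries were made from total RNA. The submitters' processing notes name FastQC 0.11.9, kallisto 0.50.1, DESeq2 1.44.0 and the build GRCh38; their roles and the gene annotation were not given in the sources used here. As for values, the authors deposited a signal per gene under the name of normalized counts; scaling by DESeq2 size factors is inferred from that name and the notes, not recorded in the file. Between 55.7% and 75.5% of low values (up to 20 reads) came out whole (tolerance 0.05), so reads could not be recovered, no count model was run, and depth and its precision are unknown.

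log2(value + 1) was fitted with limma 3.58.1 (R 4.3.3, statmod 1.5.0): a mean per group from the sample labels, intensity trend, robust moderation, genes with at least 10 in at least 2 libraries (22994), and Benjamini-Hochberg adjustment over them. The script was tested on simulated data. The pseudocount understates changes of low genes. Genes of like level are those with a mean at least that of the lowest member, a stratum chosen after values were seen. It has no upper limit, so it also holds genes above the members and is not matched to them. Members, gene lists and tests were chosen with earlier results of these data known. Named members are the highest means, the largest called changes whose libraries do not overlap, the role lists, and the highest members never called. Fingers (C-x(2,4)-C-x(12)-H-x(3,5)-H), KRAB-like stretches and codon shares came from translated GENCODE 29 coding sequences in place of a RefSeq protein table, which was not used here. Promoters are RefSeq's (GRCh38.p14). Alternatives: pseudocounts of 0.5 and 10, no filter, a mean of at least 50, equal totals, quantile normalization, only the groups compared, a replicate block, the library number (order of listing) modulo 8, array weights, and leaving out each library.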

Additional observations from a re-analysis of the deposited data

Results flagged for a closer look

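The effect of 25% against 100% histidine differed between day 3 and day 6 in 18 members (9%), beside 4.72% of all tested genes. This is by the test of the difference itself in limma. By direction, 8.5% of members were higher and 0.5% lower. Among genes with a mean at least that of the lowest member, 6.6% were higher and 3.78% lower. Taking both directions together, the share of members was thus no higher than among those genes. Among the named members the effect on day 6 minus that on day 3 was 1.34 for ZNF805, 1.01 for ZNF574, 0.75 for ZNF668, 0.73 for ZNF281, 0.50 for ZNF207 and 0.45 for ZNF384, in log2 units. The value of ZNF668 lost its call without replicate 3 of the day 3 controls, and that of ZNF384 with equal totals and without any 1 of replicate 1 of the day 3 controls, replicate 3 at 25% on day 3, replicate 3 of the day 6 controls or replicate 2 at 25% on day 6.

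The effect of 12.5% histidine differed between days in 6 members (3%), beside 3.64% of all tested genes, so the share of members was no higher than over all genes. The named ones were ZNF593 with -0.92, ZNF8 with 0.92, ZNF853 with -0.78, ZNF121 with 0.57 and ZNF592 with -0.44. Each of these 5 calls was lost without replicate 1 of the day 3 controls, and each without at least 1 of the libraries at 12.5% on day 6.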

How the results depend on the processing

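Among the comparisons of named members, no called direction reversed under any alternative run. The other members were not checked for this. The split of called members from 25% to 12.5% on day 3 went from more rises to more falls with equal totals. For the counts of called members, the library number modulo 8 as a covariate gave 28 at 25% against 100% on day 3 (64 reported), 45 at 0% against 100% (81), 45 from 50% to 25% (71), 2 from 25% to 12.5% (18), 28 from 12.5% to 0% (60), 20 from 50% to 25% on day 6 (48), 0 from 25% to 12.5% on day 6 (3), 4 for day 6 against day 3 at 100% (16) and 8 for the difference between days at 25% (18). The library number is only the order in which the samples are listed, group by group, and no label names a batch. Modulo 8 it stands for no known batch, and as a covariate it leaves fewer degrees of freedom. A fit of only the groups compared gave 0 from 25% to 12.5% on day 6 and 11 for the difference between days at 25%. Array weights gave 5 from 25% to 12.5% on day 6, equal totals gave 33 for day 6 against day 3, and a mean of at least 50 gave 29 and 10 for the differences between days at 25% and 12.5%. The causes were not tested.

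Leaving out 1 library at a time gave, against 100% on day 3, 41 to 53 at 25%, 52 to 66 at 12.5% and 57 to 73 at 0%; on day 6, 36 to 42 at 25% and 32 to 48 at 12.5%; for the steps on day 3, 61 to 67, 10 to 14 (10 without replicate 1 at 25%) and 46 to 55; for those on day 6, 38 to 44 and 1 to 3; 5 to 16 between days at 100%; and 12 to 20 and 1 to 7 for the differences between days at 25% and 12.5%.

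Replicate numbers did not pair the libraries: deviations from group means correlated between -0.11 and 0.19 over 92 pairs with the same number, 1 of them over 0.1. With a replicate block the calls against 100% on day 3 were 59, 69 and 81, and on day 6 42 and 55. Counting each named member's comparison once under each alternative, a call was kept 2741 times and lost 346 times, and an uncalled value passed 98 times.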
